A study of Mus musculus with 4 samples.

Results

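The 10 genes described here belong to the cytotoxic lymphocyte program and were followed through T cells and antigen-presenting cells (APCs) of mouse lymph nodes: the granzymes Gzma, Gzmb, Gzmk and Gzmm, the pore former Prf1, the granule membrane protein Nkg7, the cytokine Ifng, and the chemokines Ccl3, Ccl4 and Ccl5. They were taken by symbol, by a rule that uses no measured value, and are 10 of the 32285 genes in the deposited matrices. All 10 had at least 50 unique molecular identifiers (UMIs, counted transcript molecules) in T cells, as did 10214 genes in all. The treated mice were wildtype animals whose chow held RGX-104, which activates the liver X receptors (LXR), nuclear receptors for oxysterols, from day 3 after injection of tumor cells, and the mice they were set against were wildtype animals on control chow. All of them carried tumor cells, and tumor-draining nodes were taken on day 8, dissociated, sorted by flow cytometry and read by droplet single-cell RNA sequencing from the transcripts' capped ends, with T cell receptor libraries of the same cells. Each chow is represented by 1 RNA library, the number of mice behind it is not given in the sources used here, and no test between the chows can be made. Every interval below is a 95% counting interval and says nothing of the spread between mice.

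Killer lymphocytes store granzymes and perforin in granules. On contact with a target the granules are released, perforin opens the target's membrane, and the granzymes that enter cleave proteins inside it. The same cells secrete interferon gamma, which activates macrophages and antigen presentation, and the chemokines CCL3, CCL4 and CCL5, which draw further immune cells. Dendritic cells and macrophages make several of these chemokines too.

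The RGX-104 library gave 1995 annotated T cells with 11312346 UMIs and a median of 5048 UMIs per cell, and the control library 2099 T cells with 11464487 UMIs and a median of 4944. Annotated APCs numbered 949 in the RGX-104 library and 782 in the control library. The libraries shared 95 cell barcodes, of which 15 were annotated in both. Levels are CPM, the UMIs of a gene in every 1000000 UMIs of all genes, summed over the cells named, with exact Poisson intervals. A summed level mixes how many cells hold a transcript with how much each holds, so the number of cells with a UMI is given beside it. Cell type names are those of the authors' annotation.

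Gzma and Gzmk lie near each other on chromosome 13, at 113093824 to 113100981 and 113171630 to 113180965 (RefSeq on GRCm38.p6). Gzmb lies on chromosome 14 at 56258836 to 56262334. Chromosome 10 holds Gzmm at 79689020 to 79695261, Prf1 at 61297751 to 61304684 and Ifng at 118441046 to 118445894, and Nkg7 lies on chromosome 7 at 43437138 to 43438246. The chemokines sit in a cluster on chromosome 11, with Ccl5 at 83525778 to 83530518, Ccl3 at 83647843 to 83649378 and Ccl4 at 83648624 to 83664683. All 10 are protein coding. The annotated spans of Ccl3 and Ccl4 overlap, and how the authors' counting used strand is not given in the sources used here, so the split of UMIs between these chemokine genes is uncertain.

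The 250 bases upstream of the annotated start are shown for 2 granzymes whose summed level was higher with RGX-104 (Gzma, Gzmb), for Ifng, and for Nkg7, whose level was close to the control. They come from RefSeq on GRCm38.p6, read in the direction of the gene, at chr13:113100982-113101231 (minus strand), chr14:56262335-56262584 (minus), chr10:118440796-118441045 (plus) and chr7:43436888-43437137 (plus). Capitals mark matches to a RUNX motif (TGTGGT), a T-box motif (AGGTGT), an AP-1 motif (TGANTCA) or the core LXR motif (AGGTCA), on either strand.
Gzma: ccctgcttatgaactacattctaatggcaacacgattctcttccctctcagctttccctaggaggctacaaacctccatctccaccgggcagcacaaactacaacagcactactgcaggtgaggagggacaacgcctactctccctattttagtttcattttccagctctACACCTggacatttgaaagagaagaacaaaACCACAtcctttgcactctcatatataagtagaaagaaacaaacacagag
Gzmb: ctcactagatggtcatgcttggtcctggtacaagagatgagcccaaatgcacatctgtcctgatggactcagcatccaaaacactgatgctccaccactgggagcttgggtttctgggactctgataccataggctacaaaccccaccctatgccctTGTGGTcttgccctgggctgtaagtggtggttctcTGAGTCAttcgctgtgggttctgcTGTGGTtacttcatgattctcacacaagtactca
Ifng: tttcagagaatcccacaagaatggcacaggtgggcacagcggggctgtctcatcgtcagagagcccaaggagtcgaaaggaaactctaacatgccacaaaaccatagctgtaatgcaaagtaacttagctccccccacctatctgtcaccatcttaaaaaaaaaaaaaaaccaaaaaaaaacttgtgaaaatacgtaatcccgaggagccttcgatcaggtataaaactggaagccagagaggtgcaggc
Nkg7: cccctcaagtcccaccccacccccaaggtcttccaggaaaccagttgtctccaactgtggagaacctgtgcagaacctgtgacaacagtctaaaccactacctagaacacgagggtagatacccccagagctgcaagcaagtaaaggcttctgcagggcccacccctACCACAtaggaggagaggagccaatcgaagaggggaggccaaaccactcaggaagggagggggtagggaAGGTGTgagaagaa
The window of Gzma held 1 RUNX and 1 T-box match, that of Gzmb 2 RUNX matches and 1 AP-1 match, that of Nkg7 1 RUNX and 1 T-box match, and that of Ifng none of these letters. Promoter entries matched 8 of the 10 genes (all but Ccl4 and Ccl5) in 9 windows. A RUNX match stood in 6 of the 9, against 14.0% of all 32851 windows of the same length, and a T-box match in 4, against 11.8%. The core LXR motif was in 2 of the 9 windows, 1 of Gzmm and that of Ccl3, against 14.0% of all windows, and its direct repeat with 4 bases between the copies was in 0 of the 9, against 0.0152% of all windows. The AP-1 motif was in 1 of the 9, against 6.75%. A match is a run of letters and not a measured binding site.

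Summed over all T cells, 7 of the 10 genes had a level at least 1.5-fold above that of the control with RGX-104 and 0 a level at least 1.5-fold below it, where 2.92% of the 10214 measured genes were that much higher and 1.66% that much lower. The median log2 ratio of the 10 was 1.12, and that of all measured genes -0.01. The 7 were Gzma, Gzmb, Gzmk, Ifng, Ccl3, Ccl4 and Ccl5. Gzmm, Prf1 and Nkg7 stayed within 1.5-fold. The plot of ratios shows each gene with and without 2 small T cell types.

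**Figure D1:**
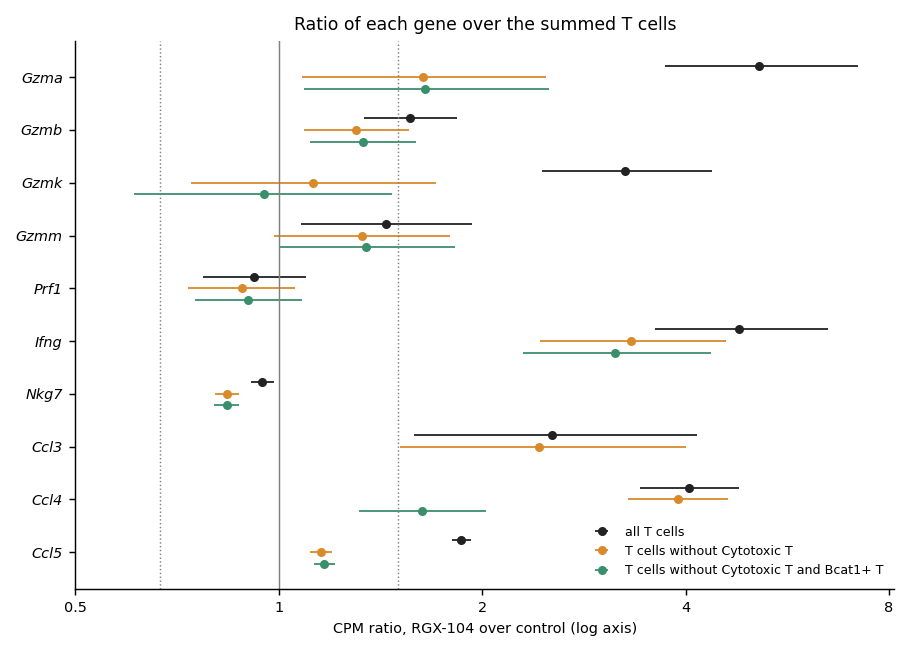
CPM ratio of RGX-104 over control for each gene on a log axis, over all T cells (black), without the cells named Cytotoxic T (orange) and without those and the cells named Bcat1+ T (green); bars are exact 95% counting intervals, the solid line marks 1 and the dotted lines 1.5-fold either way. Gzma drops to 1.63 and Gzmk to 1.12 without Cytotoxic T, and Ccl4 to 1.63 without both types; Ccl3 has no green point because its control sum is then 0.

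Among the granzymes, Gzma, a tryptase, stood at 20.6 CPM in RGX-104 T cells (233 UMIs) and 4.01 CPM in control T cells (46 UMIs), a ratio of 5.13 (3.73 to 7.21). Gzmk, which also has tryptase activity, had 209 UMIs with RGX-104 and 65 with control chow, a ratio of 3.26 (2.46 to 4.37). Both were rare: 46 of 1995 RGX-104 and 28 of 2099 control T cells held a Gzma UMI, and 44 and 14 cells a Gzmk UMI. Gzmb, which starts cell death by cleaving caspase substrates, had 400 UMIs in RGX-104 and 259 in control T cells, a ratio of 1.57 (1.34 to 1.84), in 70 and 40 cells. Gzmm, a further granzyme best known from NK cells, had 118 and 83 UMIs and a ratio of 1.44 (1.08 to 1.93), in 55 and 48 cells. The UMIs of Gzma were the most concentrated of the 4 granzymes with RGX-104: 1 cell held 91 of them (39.1%), and the next brought the sum past the midpoint. Without the top cell of each library, the ratios were 3.8 for Gzma, 5.01 for Gzmk, 1.54 for Gzmb and 1.45 for Gzmm.

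Prf1 and Nkg7 behaved otherwise. Prf1, perforin, was spread thinly over many cells, with 248 UMIs in 212 RGX-104 cells and 273 UMIs in 241 control cells, and no cell held more than 3 and 4. Its ratio was 0.92 (0.77 to 1.10). Nkg7, a granule protein needed for efficient degranulation, was found in 963 RGX-104 and 1028 control T cells (48.3% and 49.0%), with 4777 and 5122 UMIs and a ratio of 0.945 (0.908 to 0.983). For both genes the libraries differed by less than 1.5-fold, and their UMIs did not hang on any 1 cell.

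Ifng, interferon gamma, had 275 UMIs in 57 RGX-104 T cells and 58 UMIs in 32 control T cells, a ratio of 4.81 (3.61 to 6.49). One RGX-104 cell of the type CD8_01 held 80 of them (29.1%), and without the top cell of each library the ratio was 4.04 (2.94 to 5.65). That cell had 33315 UMIs over all genes, with 3 Cd4 and 1 Cd8b1 UMIs and 14 of Gzmk, and whether the barcode held more than 1 cell was not tested. Ccl3 had 65 UMIs in 21 RGX-104 cells, 19 of which held 1 UMI, and 26 UMIs in 2 control cells, a ratio of 2.53 (1.59 to 4.16). Ccl4 had 707 UMIs in 48 RGX-104 cells and 177 in 31 control cells, a ratio of 4.05 (3.43 to 4.80). The same RGX-104 cell of the type Bcat1+ T was the top cell of both, with 38 of the 65 Ccl3 UMIs (58.5%) and 232 of the 707 Ccl4 UMIs (32.8%). Ccl5 was the broadest of the chemokines in T cells, with 10527 UMIs in 502 RGX-104 cells and 5727 UMIs in 444 control cells, a ratio of 1.86 (1.80 to 1.92), and 30 RGX-104 and 35 control cells were enough to hold 50% of them.

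The cells that the authors named Cytotoxic T held much of this. They numbered 44 of 1995 T cells with RGX-104 (2.21%, Clopper-Pearson 1.61 to 2.95) and 16 of 2099 with control chow (0.762%, 0.436 to 1.23). From them came 75.6% of the RGX-104 and 27.7% of the control Gzmk UMIs, 73.0% and 13.0% of Gzma, 39.5% and 0.21% of Ccl5, 37.1% and 6.90% of Ifng, and 30.3% and 14.3% of Gzmb. They gave little of Prf1 (8.47% with RGX-104 and 2.20% with control chow) or of Ccl3 (6.15% and 0%). Without them, 4 of the 10 genes were at least 1.5-fold higher and 0 at least 1.5-fold lower, with a median log2 ratio of 0.39, where 2.51% of the 10119 genes measured in those cells were that much higher and 1.71% that much lower. The 4 were Gzma at 1.63 (1.08 to 2.49), Ifng at 3.32 (2.43 to 4.60), Ccl3 at 2.43 (1.51 to 4.01) and Ccl4 at 3.89 (3.29 to 4.62). Gzmk was then at 1.12 (0.742 to 1.71), Gzmb at 1.30 (1.09 to 1.56) and Ccl5 at 1.15 (1.11 to 1.20). Single RGX-104 cells weigh on some of the 4 higher ratios. The CD8_01 cell above held 80 of the 173 Ifng UMIs left, and the Bcat1+ T cell 38 of 61 Ccl3 and 232 of 661 Ccl4 UMIs. Cells with an Ifng UMI numbered 42 of 1951 with RGX-104 and 31 of 2083 with control chow.

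**Figure D2:**
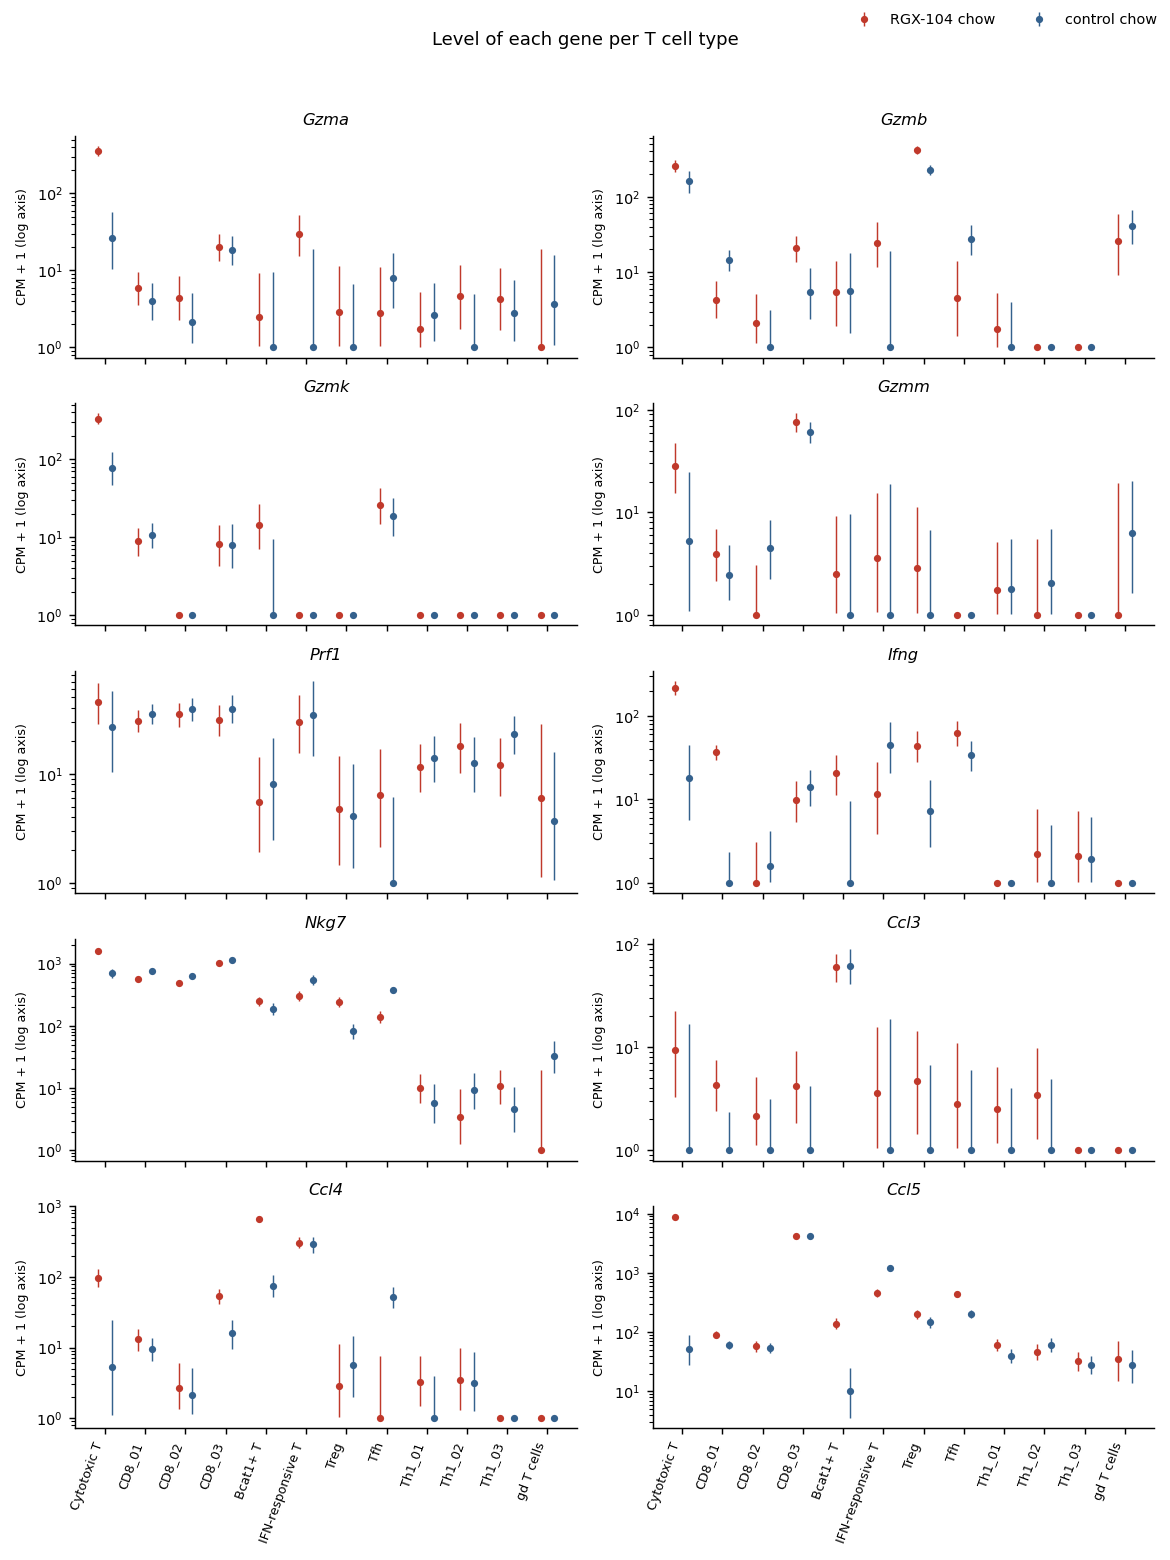
Level of each gene in the 12 T cell types, as CPM + 1 on a log axis, with RGX-104 (red) left of control (blue); bars are exact 95% Poisson intervals, and a point at 1 means 0 UMIs. Gzma, Gzmk, Ifng and Ccl5 stand highest in Cytotoxic T with RGX-104, Gzmb in Treg, and Gzmm in CD8_03 in both libraries.

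The type held cells of more than 1 kind, with a median of 8910.5 UMIs per cell with RGX-104 and 13387 with control chow. In the RGX-104 library the 44 cells had 8746 CPM of Ccl5 (4158 UMIs, in 35 cells), 1609 CPM of Nkg7 (41 cells), 358 CPM of Gzma (6 cells), 332 CPM of Gzmk (34 cells), 255 CPM of Gzmb (22 cells) and 215 CPM of Ifng (15 cells). The 16 control cells had 51.4 CPM of Ccl5 (12 UMIs, in 7 cells), 698 CPM of Nkg7 (12 cells), 25.7 CPM of Gzma (2 cells), 77.1 CPM of Gzmk (6 cells), 158 CPM of Gzmb (3 cells) and 17.1 CPM of Ifng (1 cell). Ccl5 had 20 or more UMIs in 25 of the 44 RGX-104 cells, and no control cell had more than 4. The cells overlapped at the low end, where 13 RGX-104 and 15 control cells had 2 UMIs or fewer. At least 4 of the 10 genes were seen together in 33 of the 44 RGX-104 cells (75.0%, 59.7 to 86.8) and in 5 of the 16 control cells (31.3%, 11.0 to 58.7). The control cells given the name thus had little Ccl5, below the level of control Treg (145 CPM, 117 to 178) and CD8_03 (4218 CPM), although their Gzmk was the highest of the control T cell types.

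The UMI total of the cell moved with this, at a boundary of 8000 UMIs that was set after the values were seen. Of the RGX-104 cells named Cytotoxic T, 21 lay under 8000 UMIs. All 21 had Ccl5, with a median of 159 UMIs and 35710 CPM, and 20 had Gzmk. Mki67, a protein of dividing cells, was seen in 2 of these 21 cells, and Ccr7, a receptor of cells that home to nodes, in 3. Of the 25 RGX-104 cells with 20 or more Ccl5 UMIs, 20 were among these, and 5 had higher UMI totals, 3 of them with Mki67. The other 23 RGX-104 cells lay at or above 8000 UMIs and had a median of 2 Ccl5 UMIs (1746 CPM), Gzmk in 14 cells, Mki67 in 20 and Ccr7 in 13. Median depth was 4334 UMIs in the 21 cells and 15079 UMIs in the 23. Mki67 stood at 20.4 CPM (2 UMIs) in the 21 cells and 501 CPM in the 23. Ccr7 stood at 30.6 CPM (3 UMIs) and 162 CPM in the same order. The part of depth in these counts of cells was not tested. In the control library 3 cells lay under 8000 UMIs, with 1 Ccl5 UMI in all, and 13 at or above, of which 6 had Ccl5 (49.2 CPM), 11 had Mki67 and 10 had Ccr7. All 170 Gzma UMIs of the RGX-104 cells came from cells at or above the boundary, 91 and 65 of them from 2 cells, and those 2 cells had 43 and 0 Ccl5 UMIs. Of the 21 RGX-104 cells under the boundary, 11 belonged to a clone of at least 2 cells in the authors' table, against 2 of the 23 at or above it and 1 of the 16 control cells.

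**Figure D3:**
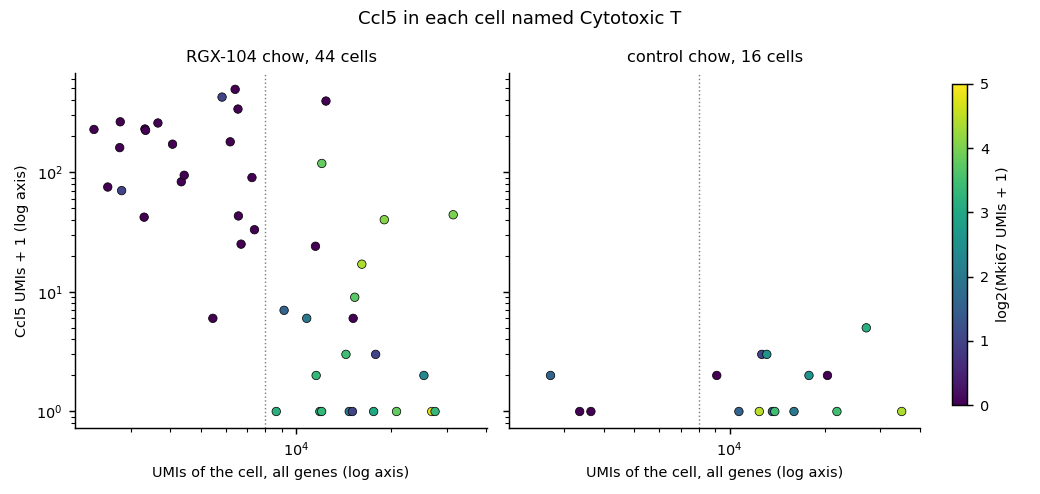
Ccl5 UMIs + 1 against all UMIs of each cell named Cytotoxic T, both on log axes, in the RGX-104 library (left, 44 cells) and the control library (right, 16 cells); colour gives log2(Mki67 UMIs + 1) and the dotted line marks 8000 UMIs. Of the 25 RGX-104 cells with 20 or more Ccl5 UMIs, 20 lie left of the line with at most 1 Mki67 UMI and 5 right of it with up to 16, and no control cell exceeds 4 Ccl5 UMIs.

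Coreceptor transcripts were mixed in the type. Of the 44 RGX-104 cells, 26 had Cd8a or Cd8b1 without Cd4, 12 had Cd4 alone, 3 had both and 3 neither. Of the 16 control cells, 9 had Cd8a or Cd8b1 alone, 2 had Cd4 alone, 3 both and 2 neither. The 4 B cell markers were all detected in both libraries and summed to 50.5 CPM in the RGX-104 and 287 CPM in the control cells. Of 7 NK cell markers, 4 were detected with RGX-104 (218.7 CPM) and 2 with control chow (77.1 CPM), and Ncr1, Klrb1c and Klra8 were at 0 in both. The part of B cell or NK cell transcripts in the difference was not tested. The named T cell markers were at 2825 CPM in the RGX-104 and 2780 CPM in the control cells.

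Outside that type, the granzymes kept to different cells. Gzmb was mainly a regulatory T cell transcript: Treg gave 56.0% of its RGX-104 and 56.0% of its control UMIs. It stood at 417 CPM (364 to 475) in 79 RGX-104 Treg and 226 CPM (191 to 266) in 97 control Treg, a ratio of 1.84 (1.49 to 2.28), with a UMI in 20 and 17 cells. One RGX-104 Treg held 75 of the 224 UMIs and 1 control Treg 45 of the 145, and the ratio without both was 1.76 (1.35 to 2.29). Gzmm was mainly a transcript of CD8_03, which gave 79.7% of its RGX-104 and 81.9% of its control UMIs, at 74.6 CPM (60.2 to 91.2) and 59.5 CPM (46.2 to 75.4), a ratio of 1.25 (0.908 to 1.74) that does not depart from 1 beyond counting error. Gzmk was at 7.14 CPM in RGX-104 and 7.0 CPM in control CD8_03, and Gzma at 19.0 and 17.5 CPM in the same cells. In the CD8_01 cells, 34 of the 36 control Gzmb UMIs and all 26 control Gzmk UMIs lay in 1 cell.

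Prf1 was found across the CD8 types and Cytotoxic T. With RGX-104 it stood at 29.4 CPM in CD8_01, 34.1 CPM in CD8_02, 30.1 CPM in CD8_03 and 44.2 CPM in Cytotoxic T, and with control chow at 34.5, 38.0, 38.5 and 25.7 CPM in the same order. The intervals of these 4 levels overlapped within each library and between the libraries. In the 3 Th1 types it ran from 10.6 to 16.9 CPM with RGX-104 and from 11.6 to 21.9 CPM with control chow. A Prf1 UMI was found in 14.7% of RGX-104 and 16.6% of control CD8_01 cells, against 1.96% and 1.95% of barcodes with B cell markers in the same libraries, which should lack it (median depth 3597 and 3554.5 UMIs, against 5587.5 and 5625.5 in CD8_01).

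Nkg7 was a transcript of all CD8 types, and its ratio took different directions by type. It was lower with RGX-104 in CD8_01, at 563 CPM (533 to 593) against 749 CPM (717 to 783) with control chow, a ratio of 0.751 (0.700 to 0.805), and in CD8_02, at 488 against 632 CPM, a ratio of 0.773 (0.706 to 0.846). In CD8_03 it was at 1020 CPM with RGX-104 and 1129 CPM with control chow, a ratio of 0.903 (0.836 to 0.977). The named T cell markers were lower with RGX-104 in each of these types. They stood at 2449 against 2817 CPM in CD8_01, 2503 against 2877 CPM in CD8_02 and 2234 against 2502 CPM in CD8_03. Cd8a and Cd8b1 together were lower in CD8_01 and CD8_02 but not in CD8_03, at 891 against 874 CPM. Whether Nkg7 differed apart from these markers was not tested. In follicular helper cells (Tfh) Nkg7 was at 138 CPM in RGX-104 and 377 CPM in control cells, a ratio of 0.366 (0.281 to 0.473), and there the CD8 transcripts moved with it, at 105.7 CPM in RGX-104 and 509.9 CPM in control Tfh, in 8 of 84 and 28 of 126 cells. In Treg it was higher, at 242 CPM in RGX-104 and 81.2 CPM in control cells, a ratio of 2.98 (2.14 to 4.19), although 13 of 79 and 16 of 97 cells had a UMI. Barcodes with B cell markers had Nkg7 at 70.2 CPM with RGX-104 and 73.6 CPM with control chow, so the control Treg level was near theirs. Cd8a or Cd8b1 was seen in 18 of the 79 RGX-104 and 7 of the 97 control Treg. The part of CD8 cells among Tfh and Treg in these values was not tested.

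The 3 types named Th1 after helper cells known for interferon gamma held 0 or 1 Ifng UMI each in either library. Tfh held 34 UMIs in 15 of 84 RGX-104 cells and 24 UMIs in 12 of 126 control cells, at 60.9 CPM (42.2 to 85.1) and 33.0 CPM (21.1 to 49.1), a ratio of 1.85 (1.06 to 3.26). Without the top Tfh cell of each library, which held 8 and 4 UMIs, the ratio was 1.71 (0.917 to 3.23), an interval that spans 1. Treg held 23 UMIs in 8 RGX-104 cells and 4 UMIs in 4 control cells. CD8_03 had 11 UMIs with RGX-104 and 15 with control chow, and there the interval of the ratio (0.276 to 1.55) spans 1. CD8_01 held 86 UMIs in 4 RGX-104 cells, 80 of them in the 1 cell described above, and 0 in 464 control cells, which allows a share of up to 0.647% of cells with a UMI. Apart from that cell, Ifng was thus seen in few CD8_01 cells of either library.

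Ccl5 marked CD8_03 in both libraries. These cells had 4184 CPM (5275 UMIs, 134 of 182 cells) with RGX-104 and 4218 CPM (4823 UMIs, 137 of 176 cells) with control chow, a ratio of 0.992 (0.954 to 1.03). They gave 50.1% of the Ccl5 UMIs of RGX-104 T cells and 84.2% of those of control T cells, so the type in which most Ccl5 lay did not differ between the chows beyond counting error. A Ccl5 UMI was found in 19.3% of RGX-104 and 13.4% of control barcodes with B cell markers, at 655 and 302 CPM, a ratio of 2.17, with 1219 and 320 of those UMIs in 1 barcode each. Against that, CD8_01 had a UMI in 20.3% of RGX-104 and 17.9% of control cells, at 89.9 and 59.7 CPM, and Tfh in 21.4% and 23.8%, at 441 and 202 CPM. In the Th1 types the share ran from 13.8% to 16.9% with RGX-104 and from 9.54% to 14.2% with control chow. These levels in CD8_01, Tfh and the Th1 types lay, in CPM, below those of the B cell marker barcodes, which single barcodes rich in Ccl5 raised. Whether they are expression was not tested, and they are read neither as expression nor as a difference between the chows.

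Ccl4 was carried by a few cells at high level. CD8_03 had 66 UMIs in 18 RGX-104 cells and 17 UMIs in 9 control cells, at 52.3 CPM (40.5 to 66.6) and 14.9 CPM (8.66 to 23.8), a ratio of 3.52 (2.04 to 6.40), and of 3.41 without the top cells. Barcodes with B cell markers had Ccl4 at 25.6 CPM with RGX-104 and 13.8 CPM with control chow, so the control CD8_03 level was near theirs. A Ccl4 UMI was in 9.89% and 5.11% of CD8_03 cells, and in 2.88% and 1.78% of those shallower barcodes. Bcat1+ T held 440 UMIs in 6 of 58 RGX-104 cells and 32 UMIs in 1 of 30 control cells. IFN-responsive T held 117 and 60 UMIs, of which 116 and 59 came from 1 cell each. In Tfh, 0 of 84 RGX-104 cells had a Ccl4 UMI, which allows a share of up to 3.57%, and 8 of 126 control cells did, with 37 UMIs. Cd8a or Cd8b1 was seen in 8 of these RGX-104 and 28 of these control Tfh, and the part of CD8 cells in this contrast was not tested. Without the cells named Cytotoxic T and Bcat1+ T, 3 of the 9 members still measured were at least 1.5-fold higher and 0 at least 1.5-fold lower, where 2.48% of the 10020 genes measured there were that much higher and 1.98% that much lower. Ccl4 was then at a ratio of 1.63 (1.32 to 2.03) and Gzma at 1.65 (1.09 to 2.52). Ccl3 had 22 UMIs in 15 RGX-104 cells (2.16 CPM) and 0 in 2053 control cells in that set. Barcodes with B cell markers had Ccl3 at 2.91 CPM with RGX-104 and 0.329 CPM with control chow, so no difference in T cells is read from these few UMIs.

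CD8_03 also differed from the other CD8 types in its receptors. The 7 NK cell markers summed to 421 CPM in its RGX-104 cells (7 of 7 detected) and 413 CPM in its control cells (6 of 7, Klra8 at 0), against 22.5 to 33.1 CPM in CD8_01 and CD8_02 of both libraries. Neither Cd4 nor Cd8a nor Cd8b1 was seen in 56 of 182 RGX-104 and 65 of 176 control CD8_03 cells. The 4 gamma delta T cell markers summed to 88.04 CPM in RGX-104 and 146.1 CPM in control CD8_03. Any of them was seen in 34 of 182 RGX-104 and 39 of 176 control CD8_03 cells. Their sum was 12.01 CPM in RGX-104 and 3.34 CPM in control CD8_01, and 2.84 and 4.03 CPM in CD8_02. The part of gamma delta T cells in CD8_03 was not tested. The summed level of the NK markers was nearly the same in both libraries in the type that held most Gzmm and much of the Ccl5.

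Over the 23 combinations of T cell type and library with at least 20 cells, the genes whose levels were most like those of each member were compared by Pearson's r of log2(CPM + 1). These points share libraries, depth and cells, so r is a description. Nkg7 was nearest to Cd8a (0.902) and Cd8b1 (0.897), the CD8 chains, and then Racgap1 (0.888). Gzmm was nearest to the NK receptors Klra6 (0.895) and Klra3 (0.883), followed by Wdr95 (0.844), and Ccl5 to Lilr4b (0.901), Klrc1 (0.886) and Wipf1 (0.872). Gzmb was nearest to Cyba (0.918), Lamtor4 (0.897) and Cmtm7 (0.879). Prf1 was nearest to Gpr18 (0.803), Calhm6 (0.777) and Klrd1 (0.776), and Ifng to Lilr4b (0.822), Il12rb2, a chain of the interleukin-12 receptor (0.812), and Celf2 (0.80). The nearest genes of Gzma were Wdr95 (0.739), Lpin1 (0.725) and Klrc1 (0.718), those of Gzmk Cyb5r4 (0.743), Wdr95 (0.711) and Nmrk1 (0.700), those of Ccl4 Lmnb2 (0.758), Slamf7 (0.749) and Eomes (0.747), and those of Ccl3 Rbis (0.916), Tmem97 (0.844) and Snrpf (0.841). Among the 10 genes themselves the highest value was that of Ccl5 with Ifng (0.76) and the lowest that of Gzmb with Prf1 (-0.34). The 10 are thus not a single unit of expression across these types.

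The T cell receptor calls gave a further division. In RGX-104 T cells, 429 belonged to a clone of at least 2 cells in the authors' table, 1235 to a clone of 1 cell and 331 had no clone call, and in control T cells 294, 1540 and 265. Ccl5 was at 1549 CPM in the expanded clones and 608 CPM in single cells with RGX-104, and at 611 and 402 CPM with control chow. A Ccl5 UMI was found in 25.4% and 24.0% of these RGX-104 cells and in 22.1% and 20.1% of these control cells, so the levels differed more than the shares of cells. T cells without a clone call stood higher than both groups, at 1677 CPM (29.3% with a UMI) with RGX-104 and 1169 CPM (26.0%) with control chow. High Ccl5 was thus not confined to expanded clones. Gzmk was at 30.8 CPM in expanded and 14.0 CPM in single-cell clones with RGX-104, and at 25.3 and 3.12 CPM with control chow, where the expanded cells were at 7.13 CPM without the 1 cell that held 26 of their 36 UMIs. Gzma ran the other way with RGX-104, at 5.97 CPM in expanded and 27.8 CPM in single-cell clones, where its top cell lay. Without that cell the single-cell clones were at 15.9 CPM. Of the 121 UMIs then left, 65 lay in 1 further cell, so this order rests on few cells. With control chow Gzma was at 8.42 CPM in expanded and 2.90 CPM in single-cell clones, and the expanded cells were at 2.82 CPM without their top cell. Prf1 differed little, at 23.0 and 20.03 CPM with RGX-104 and 27.4 and 22.95 CPM with control chow.

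Genes that work with these 10 were read from further lists, in all T cells, where 2.92% of all measured genes were at least 1.5-fold higher and 1.66% at least 1.5-fold lower. Nothing particular to a list is read from its count. Of 21 partners in granule handling and killing, 15 were measured, 2 were at least 1.5-fold higher with RGX-104 and 0 at least 1.5-fold lower, with a median log2 ratio of -0.17. The 2 were Xcl1, a chemokine for cross-presenting dendritic cells, at 1.94 (1.73 to 2.19), with 22.2% of its RGX-104 and 31.3% of its control UMIs from 1 cell each, and Serpinb9, an inhibitor of granzyme B, at 1.57 (1.30 to 1.91). The granule proteoglycan Srgn (0.885), the cathepsins Ctsw (0.867) and Ctsc (0.864), and the release factors Rab27a (1.03) and Unc13d (0.967) all stayed within 1.5-fold. Of 9 effector regulators, all measured, 1 was at least 1.5-fold higher (Zeb2, 1.72, 1.03 to 2.90, on 44 RGX-104 and 26 control UMIs) and 0 lower, and the median log2 ratio was 0.32. Tbx21 (1.23), Eomes (1.34), Runx3 (1.25) and Prdm1 (1.26) were within it. Of 12 effector surface receptors, 10 were measured, with 1 higher (Il12rb2, 2.03, 1.33 to 3.13), 1 lower (Klrg1, 0.649, 0.457 to 0.9152) and a median log2 ratio of 0.21. The chains of the interferon gamma receptor, Ifngr1 (1.003, 0.955 to 1.05) and Ifngr2 (0.992, 0.907 to 1.08), did not differ beyond counting error.

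In APCs the granule proteases were near 0 and the chemokines were high. Gzma, Gzmb, Gzmk, Gzmm, Prf1 and Ifng had 2 to 13 UMIs each in 949 RGX-104 APCs and 0 to 6 in 782 control APCs, and Nkg7 had 88 and 28. Ccl5 had 69591 UMIs in RGX-104 and 46549 in control APCs, at 6990 and 6368 CPM, a ratio of 1.10 (1.09 to 1.11). Most of it lay in migratory dendritic cells. It stood at 21661 CPM in RGX-104 and 20485 CPM in control mLC, at 15254 and 13619 CPM in mcDC1, and at 11811 and 11024 CPM in mcDC2, with a UMI in 93.0% to 100% of these cells. The ratios were 1.06 (1.04 to 1.08), 1.12 (1.10 to 1.14) and 1.07 (1.04 to 1.11).

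**Figure D4:**
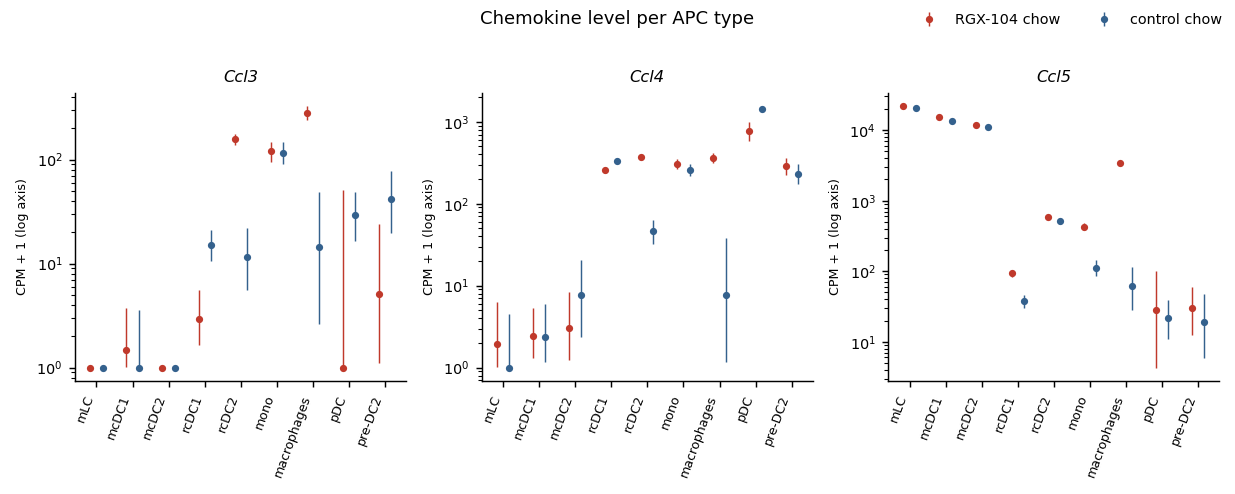
Level of Ccl3, Ccl4 and Ccl5 in 9 of the 10 APC types, as CPM + 1 on a log axis, with RGX-104 (red) left of control (blue); bars are exact 95% Poisson intervals, a point at 1 means 0 UMIs, and the 32 RGX-104 and 12 control cells named Gm26917+ mcDC are left out. Ccl5 is highest in the migratory types mLC, mcDC1 and mcDC2 in both libraries, and all 3 chemokines stand apart between the libraries in macrophages.

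Mono, rcDC1 and macrophages had lower levels of Ccl5 that stood further apart between the libraries, and each comparison has a limit given here. Cells named mono had 427 CPM (379 to 479) with RGX-104 and 110 CPM (84.1 to 142) with control chow, a ratio of 3.87 (2.92 to 5.20), with a UMI in 39 of 78 and 15 of 75 cells. The mono shares compare with 19.3% and 13.4% of the shallower barcodes with B cell markers, and the control share is near theirs. In CPM both mono levels lay below the 655 and 302 CPM of those barcodes, so no difference is read from them. rcDC1 had 92.0 CPM with RGX-104 and 36.8 CPM with control chow, also below the B cell marker barcodes, and no difference is read from it. Macrophages had 2148 UMIs in 41 of 52 RGX-104 cells and 9 UMIs in 5 of 27 control cells, at 3456 CPM (3312 to 3605) and 60.1 CPM (27.5 to 114). The macrophages also held 175 Ccl3 and 226 Ccl4 UMIs with RGX-104, in 19 and 16 cells, and 2 and 1 UMIs with control chow. Their median depth was 11398 UMIs with RGX-104 and 4415 UMIs with control chow, and the part of depth in these values was not tested.

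Ccl4 was present in many APC types. It was highest in plasmacytoid dendritic cells, at 764 CPM (56 UMIs, 9 cells) with RGX-104 and 1445 CPM (708 UMIs, 53 cells) with control chow. rcDC1 had 258 CPM (239 to 279) with RGX-104 and 334 CPM (310 to 359) with control chow, a ratio of 0.774 (0.696 to 0.861), in 60 of 138 and 57 of 135 cells. In rcDC2, 601 RGX-104 UMIs stood against 34 control UMIs, but 450 of the 601 came from 1 cell, and the ratio of 8.13 became 2.55 (1.69 to 3.997) without the top cell of each library. The same holds for Ccl3 in rcDC2, where 228 of 255 RGX-104 UMIs came from 1 cell and the control held 8. Summed over all APCs, Ccl4 had 1829 RGX-104 and 1674 control UMIs, a ratio of 0.802 (0.750 to 0.858). Without the plasmacytoid cells, a set chosen after seeing the data, the sums were 1773 and 966 UMIs and the ratio turned to 1.27 (1.17 to 1.37). Ccl3 had 518 RGX-104 and 127 control UMIs over all APCs, a ratio of 2.99 (2.46 to 3.67).

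Many UMIs of these genes lay in barcodes that the authors did not annotate, 5727 in the RGX-104 and 4465 in the control library. Among these, 86 RGX-104 and 92 control barcodes had at least 3 of 7 NK cell markers, and Ncr1 was seen in 59 and 64 of them. They held 86.7% of all Gzma UMIs of the RGX-104 library and 93.5% of those of the control library, while the annotated T cells held 7.40% and 2.10%. For Gzmb, T cells held 37.1% and the NK-marker barcodes 40.2% with RGX-104, and 43.2% and 34.7% with control chow. For Prf1, T cells held 39.0% and NK-marker barcodes 34.7% with RGX-104, and 48.2% and 27.9% with control chow. Ifng lay to 56.0% in T cells and 19.1% in NK-marker barcodes with RGX-104, and to 27.0% and 55.3% with control chow. Most Ccl5 lay in annotated APCs, 63.8% with RGX-104 and 67.3% with control chow, and 9.65% and 8.28% in T cells.

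**Figure D5:**
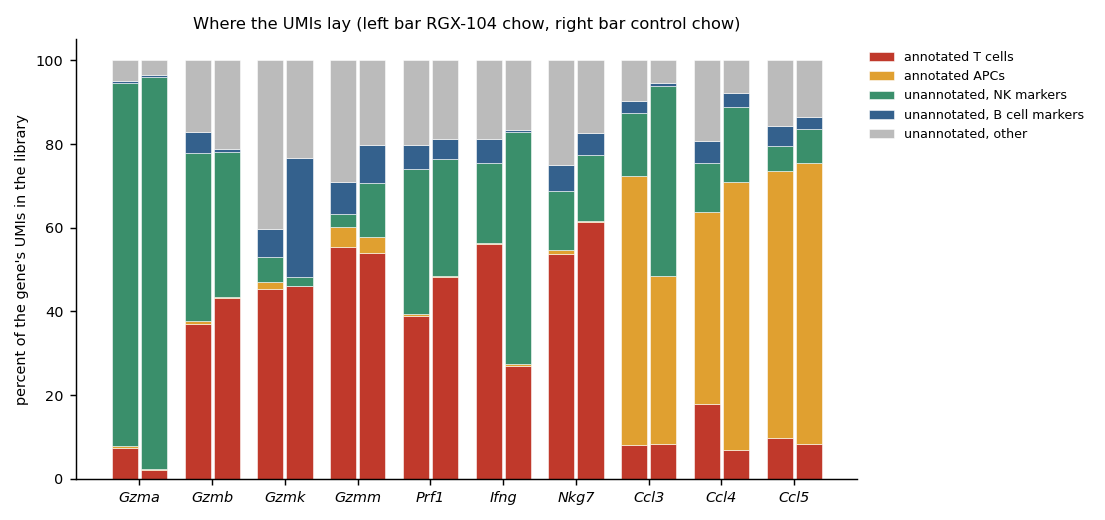
Percent of each gene's UMIs in a library by class of barcode, with the RGX-104 library as the left bar and the control library as the right bar of each pair; classes are annotated T cells, annotated APCs, and unannotated barcodes with NK cell markers, with B cell markers or with neither. Gzma is almost all in NK-marker barcodes, Ccl5 is mostly in APCs (63.8% and 67.3%), and Nkg7 mostly in T cells (53.8% and 61.3%).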

How the data were processed

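The authors deposited UMI counts per gene and barcode for 2 RNA libraries, which per the file headers come from Cell Ranger 5.0.0, and annotation tables of T cells and APCs with cell type names. The submitters' processing notes name mm10 and Seurat 5.0.3. The percent of mitochondrial UMIs and the clone sizes, counts of cells per clone, are the authors' values in the deposited tables, and served to join cells or to group them. The tables carry no barcodes, so each cell was joined by its UMI total, its gene count (over genes seen in 3 or more barcodes) and its mitochondrial percent, and all 2944 RGX-104 and 2881 control cells matched 1 barcode. No cells were filtered further, and no doublet caller was run.

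UMIs were summed per library and type (Python 3.11.15, scipy 1.17.1). Ratios are RGX-104 over control CPM with exact conditional binomial 95% intervals, shares have Clopper-Pearson intervals, and a 0 is read against a limit of 3 counts. All intervals cover counting error only. The code was tested on simulated data. Ratios within a type were formed where each library had at least 50 cells, in 8 T cell and 6 APC types, and members with at least 50 UMIs counted as measured. Named were all 10 members, per member the 3 genes most alike, and list genes whose interval excludes 1.5-fold, beside counts and a few list genes chosen after their values were seen. The members and lists were chosen with earlier results of these data known. Some genes of the lists are not reported here. TMM factors came from edgeR 4.0.16. Barcodes with at least 3 UMIs of B cell markers served as a comparison for transcripts that B cells should lack. They do not measure free RNA alone, as 1 barcode held 1219 of their 5178 RGX-104 Ccl5 UMIs and 1 held 39 of their 40 control Gzmk UMIs. These and the NK-marker classes were set after the data were seen.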

Additional observations from a re-analysis of the deposited data

Results flagged for a closer look

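Nkg7 took opposite directions in different T cell types: the ratio of RGX-104 over control was 2.98 in Treg, 0.751 in CD8_01, 0.773 in CD8_02, 0.903 in CD8_03 and 0.366 in Tfh. Its level in control Treg, 81.2 CPM, was near the 73.6 CPM of control barcodes with B cell markers. The named T cell markers were also lower with RGX-104 in CD8_01, CD8_02 and CD8_03, while Cd8a and Cd8b1 were lower in CD8_01 and CD8_02 alone among these. Ccl4 took opposite directions in dendritic cells, with a ratio of 8.13 in rcDC2, 450 of 601 RGX-104 UMIs from 1 cell, and 0.774 in rcDC1. With 1 library per chow these differences between types were not tested.

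In barcodes without an annotation, which the comparisons of cell types do not use, several members had a higher CPM with RGX-104 than with control chow, in 1 class or more. Over all these barcodes together the ratio was 1.01 for Gzma, 1.02 for Ifng, 1.02 for Ccl3, 0.98 for Prf1, 0.969 for Gzmm, 0.93 for Nkg7, 1.27 for Ccl5, 1.40 for Ccl4, 1.47 for Gzmb and 2.38 for Gzmk. In the 86 RGX-104 and 92 control barcodes with NK cell markers the ratio was 1.29 for Gzma (2730 and 2045 UMIs), 2.02 for Gzmb (434 and 208), 1.36 for Prf1 and 1.15 for Ccl5, and it was 0.339 for Gzmm (7 and 20 UMIs), 0.766 for Ifng, 0.827 for Ccl3, 0.918 for Nkg7 and 0.959 for Ccl4. At least 1 T cell marker was seen in 43 and 32 of these barcodes, and 24 in each library had exactly 3 of the 7 NK markers. In barcodes with B cell markers it was 10.58 for Gzmb (55 and 4 UMIs), 1.85 for Ccl4 and 2.17 for Ccl5, and 0.597 for Gzmk, with 39 of 40 control UMIs in 1 barcode. In the rest it was 1.41 for Gzma, 3.91 for Gzmk, 1.78 for Ifng, 1.07 for Nkg7, 3.20 for Ccl3, 2.62 for Ccl4 and 1.26 for Ccl5, and 0.841 for Prf1. For Gzma, 63 of 152 RGX-104 UMIs lay in 1 barcode and the ratio without the top barcodes was 1.07, and for Gzmk 31 of 33 control UMIs lay in 1 barcode. Median depth in the rest was 878 UMIs in both libraries.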

How the results depend on the processing

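The count of members at least 1.5-fold higher, 7 as reported, was 7 with TMM factors, with totals that leave out receptor, immunoglobulin, mitochondrial and ribosomal protein genes, with the mean of per-cell CPM and without T cells holding B cell or myeloid transcripts, 5 at 2-fold and 5 with types at equal weights. It was 6 of 9 measured members with cells thinned to 2000 UMIs, without the top cell of each gene or the top 2 (the top 2 chosen after seeing the data), and at a minimum of 200 UMIs, and 7 at a minimum of 10 or none. The count lower was 0 throughout. Without the cells named Cytotoxic T the count higher was 4 and the median log2 ratio 0.395, against 1.12 as reported. Without those and Bcat1+ T, chosen after seeing the data, they were 3 and 0.415, and Gzmk turned to 0.949. With types at equal weights, which leaves out Cytotoxic T (16 control cells), the median was 0.497 and Ccl5 turned to 0.951. Single ratios moved further. Gzma, 5.13 as reported, was 2.55 thinned, 2.78 as the mean of per-cell CPM, 1.997 at equal weights and 2.37 without the top 2 cells. Ifng, 4.81 as reported, was 2.85 as the mean of per-cell CPM and 1.85 at equal weights. Ccl4, 4.05 as reported, was 2.32 at equal weights. Gzmk, 3.26 as reported, was 1.55 at equal weights, 5.01 without the top cell and 6.47 without the top 2. Ccl3, 2.53 as reported, was 1.28 at equal weights, 11.1 as the mean of per-cell CPM, 4.55 without the top cell and 19.9 thinned, on 20 UMIs. Over all APCs, Ccl4 turned to 1.27, and Ccl5 was 1.03 against 1.10, without the cells named pDC, chosen after seeing the data. Of 21 ratios within types, 2 moved outside their interval without the top cell and 0 with the other total. No paired analysis was possible because each chow has 1 RNA library. Rare genes limit the precision: Ccl3 had 91, Gzmm 201 and Gzmk 274 UMIs over both libraries' T cells.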
